A study of Gallus gallus with 2 samples.

Results

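The long non-coding RNAs (lncRNAs) described here are the 973 transcripts that the deposited table places on the assembled chicken chromosome 7, out of 21993 in all. They were chosen by position alone, and 7 further transcripts on 5 unplaced scaffolds assigned to this chromosome were left out. Breast muscle RNA came from hens aged 7 weeks of the White Recessive Rock strain (WRR, labelled fast-growing) and of the Chinese native Xing Hua strain (XH, labelled slow-growing). The birds shared one room and one diet, were kept in separate cages, and were picked for a body weight near their strain's average, 625.3 ± 12.0 g in WRR and 328.5 ± 10.6 g in XH, where the kind of error is not named. RNA of 4 hens per strain was pooled, freed of ribosomal RNA and sequenced as 1 strand-marked library per strain. The spread between birds is therefore unknown and no p-value can be had. Each difference below is one between 2 pooled libraries, in which strain, cage and library preparation cannot be told apart.

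An lncRNA is a transcript longer than a short regulatory RNA and without a recognised protein-coding frame. Some such transcripts act on the chromatin or transcription of neighbouring genes, some bind proteins or microRNAs, and for most no function is known. In skeletal muscle, named lncRNAs of mammals take part in the differentiation of myoblasts. In the RefSeq annotation of a later chicken build, GRCg7b, chromosome 7 carries TTN and NEB, which encode the giant filament proteins titin and nebulin, MYL1, a myosin light chain of fast fibres, and DES, the muscle intermediate filament desmin. The same chromosome carries MSTN, which encodes myostatin, a secreted inhibitor of muscle growth, and IGFBP2 and IGFBP5, which encode binding proteins of the insulin-like growth factors. The table gives positions on another build, galGal4, and holds no strand, exon, sequence or gene name. No transcript could thus be tied to a gene, no position of those genes was used, and transcripts are named by their galGal4 position counted from 1. Coding potential and similarity between transcripts were not analysed here, and the tissue could not be checked against marker genes, since none is named in the table.

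Chromosome 7 held 26.8 listed transcripts per Mb of its 36245040 bases. Chromosome 6 held 21.4 per Mb (749 transcripts) and chromosome 8 held 23.8 per Mb (685 transcripts). The intervals covered 4.80% of chromosome 7, against 3.32% of chromosome 6 and 3.61% of chromosome 8. These shares include the gaps inside intervals longer than their transcript. Without such transcripts the share of chromosome 7 was 3.18%, and that of chromosomes 6 and 8 was not taken. Lengths ran from 205 to 23581 bases with a median of 824, close to the median of 844 over the whole table. For 933 transcripts the genomic interval was exactly as long as the transcript, and for 40 it was longer (gapped here).

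The transcripts crowded together. The median gap between neighbours was 1094 bases, 473 of the 972 gaps (48.7%) were under 1 kb or negative, and 41 transcripts overlapped the one before. With no strand in the table, reads of overlapping members and of antisense partners cannot be told apart. At the other end, 92 gaps were over 100 kb. The longest stretch without a listed transcript ran from 7689416 to 9173757 (1484 kb) and so emptied the whole bin from 8 to 9 Mb. The next ran from 31227674 to 32614340 (1387 kb), and the 3 after it were 822 to 830.2 kb long.

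In 1 Mb bins by transcript start, 36 of 37 bins held transcripts, with a median of 23 per bin. The bin from 20 to 21 Mb held 100, that from 3 to 4 Mb held 63, and those from 11 to 12 Mb and from 31 to 32 Mb held 61 each. These 4 bins together held 285 transcripts, 29.3% of the chromosome's. The thinnest filled bins were 28 to 29 Mb with 5 transcripts and 6 to 7 Mb with 8.

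Abundance, deposited as RPKM (reads per kilobase per M reads of the library's total), was low for most members and higher in XH. The median was 2.99 RPKM in WRR (quartiles 1.62 and 5.34) and 5.45 RPKM in XH (3.43 and 9.90). Over the whole table the medians were 2.65 and 4.48. In pooled tissue RNA, fewer cells that make a transcript and less of it per cell cannot be told apart. At least 10 RPKM was reached by 82 members in WRR, where 11.2% of all transcripts reached it, and by 239 members in XH, where 20.7% of all did. At least 50 RPKM was reached by 5 and 12 members, beside 1.26% and 1.96% of all transcripts.

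Reads were concentrated in a few transcripts. The members held 87741 WRR reads, 0.929% of that library's total, and 110923 XH reads, 1.44% of its total. Of the reads on all listed transcripts, 1846031 in WRR and 1883727 in XH, these were 4.75% and 5.89%. The single most abundant transcript took 26.1% of the WRR reads (exact 95% Clopper-Pearson interval 25.8 to 26.3%) and 14.0% of the XH reads (13.8 to 14.2%). The 10 transcripts of most reads together took 45.5% and 39.6%. These and all later intervals are exact binomial ones and cover counting error only, not birds or pooling. The reads carry no molecular identifiers, so they are not independent molecules.

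**Figure D1:**
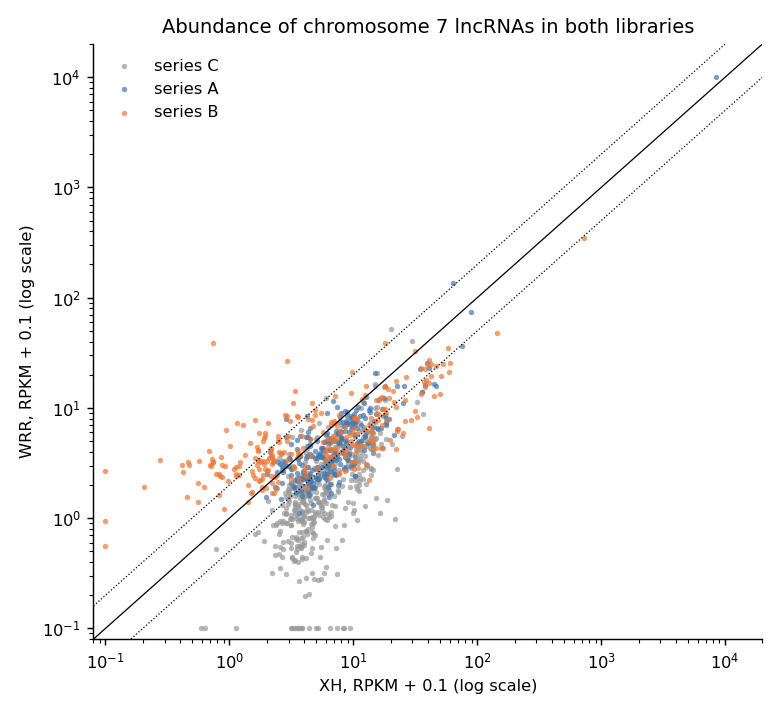
Abundance of each chromosome 7 lncRNA in the XH library (x axis) and the WRR library (y axis), as RPKM + 0.1 on log scales, coloured by series of serial numbers. The solid line marks equal values and the dotted lines 2-fold differences. Most points of series C lie below the equal line, series B spreads to both sides, and 1 transcript, at 10129 RPKM in WRR and 8403 in XH, stands alone.

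The transcript of highest mean abundance was 239 bases long and lay at chr7:21668027-21668265. It measured 10129 RPKM in WRR, from 22860 reads, and 8403 RPKM in XH, from 15494 reads. WRR was thus higher by 1.21-fold (1.18 to 1.23). Its length was covered to 99.6% in both libraries. It was more than 10 times as abundant as any other member in both libraries, and its nearest listed neighbours were 87.5 kb before and 38.7 kb after it.

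The second, 2450 bases at chr7:7407417-7409866, was lower in WRR. It measured 346 RPKM in WRR (8010 reads) and 722 RPKM in XH (13649 reads), a difference of 2.09-fold (2.03 to 2.14). The 5 transcripts after it, up to 7424759, were all lower in WRR as well, and 5 of the 6 in this window of 17.3 kb were at least 2-fold lower. Over all transcripts of the table, 46.9% were at least 2-fold higher in XH. The largest difference among them was at 7416470 to 7417020, with 8.65 RPKM in WRR and 36.7 in XH.

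The other 4 members among the 6 most abundant went both ways. The 583-base transcript at chr7:22040124-22040706 measured 134.8 RPKM in WRR and 63.4 in XH, which made WRR 2.13-fold higher (1.85 to 2.45). The 411-base transcript at chr7:560982-561392 measured 48.2 RPKM in WRR and 144.8 in XH, 3.0-fold higher in XH (2.53 to 3.58). It lay 4.48 kb after the listed transcript before it and 150.2 kb before the next one.

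The 338-base transcript at chr7:26041179-26041516 measured 73.3 RPKM in WRR and 88.2 in XH. The XH over WRR ratio of 1.20 had an interval of 0.999 to 1.45, so a difference was not detectable at this depth. The gapped transcript at chr7:18477032-18495301, 4039 bases over an interval of 18.3 kb, measured 36.1 RPKM in WRR and 74.5 in XH, with XH 2.06-fold higher (1.93 to 2.21).

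The WRR over XH ratio of each transcript was then taken as log2((WRR RPKM + 0.1) / (XH RPKM + 0.1)), which understates the change of low transcripts. It was used for the 971 members that reached 0.5 RPKM in at least one library. The median was -1.0 (quartiles -1.68 and -0.28), against -0.92 over all transcripts of the table, -0.94 on chromosome 6 and -1.02 on chromosome 8. At least 2-fold higher in WRR were 70 members (7.21%), where the share over all transcripts was 9.45%, and at least 2-fold higher in XH were 489 (50.4%), where the share over all was 46.9%. The remaining 412 lay within 2-fold. The exact interval of the read counts also excluded equality for 61 and 473 of the 971 members, against 7.64% and 44.9% of all transcripts. These were 61 of the 70 members called higher in WRR and 473 of the 489 called higher in XH. Over all 21625 transcripts past the filter, the same rule kept 1653 of the 2043 called for WRR and 9704 of the 10137 for XH.

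The table as a whole leaned the same way. Setting the median of all transcripts to 0 moved every log2 ratio up by 0.92. On that scale the median of the chromosome was -0.088, with 172 members past 2-fold on the side of WRR and 184 on that of XH, beside shares over all transcripts of 22.3% and 20.3%. The share of WRR among the 2-fold calls was then 48.3% in place of 12.5%, where over all transcripts it was 52.3% in place of 16.8%. What follows gives ratios on the deposited scale, on which any log2 ratio between -0.92 and 0 turns positive with this shift.

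The sums behaved differently from the median. Summed over the members, RPKM in WRR was 0.874 times that in XH. Without the transcript at 21668027 the ratio was 0.557, so this 1 transcript decided how near the sums were. Summed reads per library total, which weigh long transcripts more, gave 0.646 (0.641 to 0.652). On chromosomes 6 and 8 the ratios of summed RPKM were 0.583 and 0.576. With the shift, these RPKM ratios all passed 1, at 1.65 for chromosome 7, 1.05 without its most abundant transcript, and 1.10 and 1.09 for chromosomes 6 and 8.

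The ratio moved with the serial numbers that the authors gave the transcripts. Up to 3658 the numbers jump between chromosomes (called series A here). From 3659 to 11941 they pass along the chromosomes once (series B), and from 11942 to 22903 they do so a second time (series C). The sources used here do not say how the series arose. The part of the series in the results was not tested, and ratios are given by series where a region is mostly of 1 series.

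On chromosome 7 the 248 transcripts of series A had a median of -0.63, with 3 calls for WRR and 84 for XH at 2-fold, beside 5.15% and 26.6% of the whole series. The 265 of series B had a median of 0.023, with 65 and 61 calls, beside 23.6% and 15.9%. The 460 of series C had a median of -1.58, with 2 and 344 calls, beside 0.764% and 76.1%. Of the 70 members called higher in WRR, 65 were thus of series B, and of the 489 called higher in XH, 344 were of series C. The sign of series A turned when the median of all transcripts was set to 0, to 0.28. Series B, near 0 before that shift, moved to 0.94, and series C stayed negative (-0.66).

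The medians by length and structure lay closer together than those by series. The 202 members under 500 bases had a median log2 ratio of -1.27, the 648 of 500 to below 2000 bases one of -1.01, and the 123 of 2000 bases and over one of -0.67. None of the longest class was at least 2-fold higher in WRR and 42 (34.1%) were in XH, beside 2.23% and 42.1% of that class over the table. The 40 gapped transcripts had a median of -0.69, with 5 and 15 calls (12.5% and 37.5%), and the 933 contiguous ones -1.02. Over all gapped transcripts of the table the median was 0.053, with shares called of 26.2% and 23.1%. The values of the longest class and of the gapped ones turn positive when the median of all transcripts is set to 0. By position, the 450 members before the chromosome's midpoint had a median of -1.02 and the 523 after it one of -0.99.

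**Figure D2:**
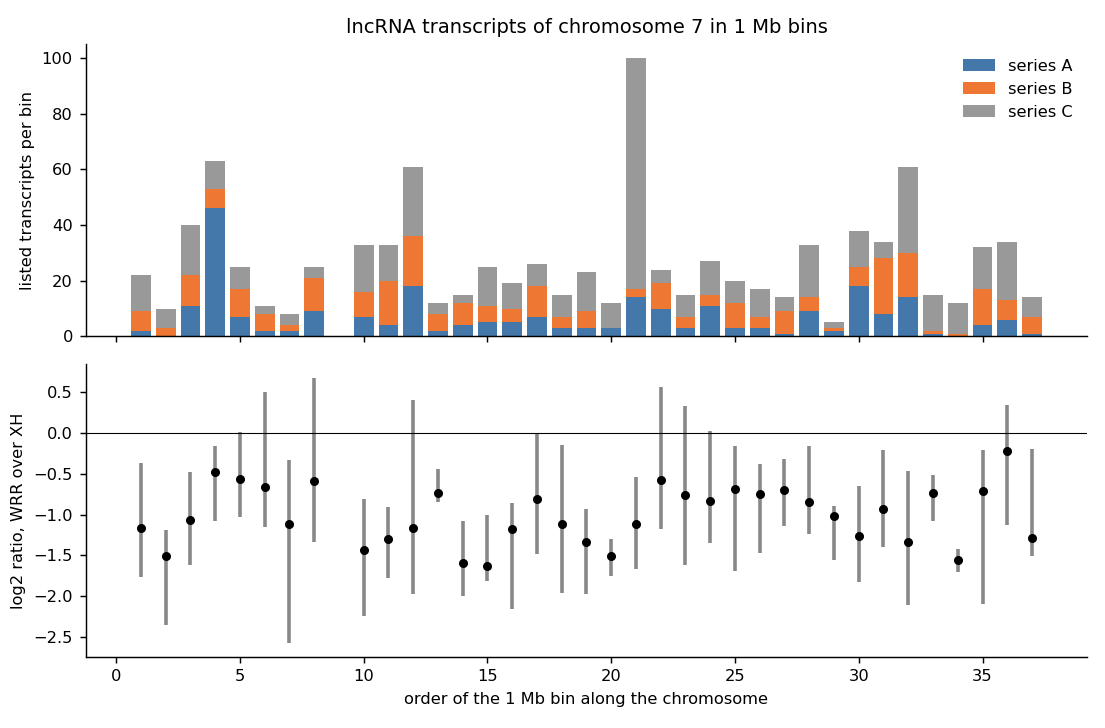
Upper panel, number of listed transcripts in each 1 Mb bin in order along the chromosome, stacked by series of serial numbers. Lower panel, median log2 ratio of WRR over XH per bin (points) with the quartiles of the transcripts (bars), and a line at 0. The bin of 100 transcripts is mostly series C, and all 36 medians lie below 0, though 16 lie above it when the median of all transcripts is set to 0.

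Along the chromosome every filled bin leaned the same way on the deposited scale. All 36 bin medians were below 0, from -1.63 to -0.22, and 19 were at or below -1. No bin had more 2-fold calls for WRR than for XH, and 9 bins had none for WRR. Over all transcripts of the table the shares called were 9.45% for WRR and 46.9% for XH. With the median of all transcripts set to 0, the calls on the whole chromosome were 172 for WRR and 184 for XH, and 16 bin medians were positive. With each transcript taken relative to the median of its series over the table, 17 bin medians were positive, and all lay between -1.15 and 0.79.

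The borders of the bins mattered in 2 places. When bins were shifted by 0.5 Mb, the bin from 21.5 to 22.5 Mb had a median of 0.51 over 13 transcripts, and the bin from 7.5 to 8.5 Mb one of 0.23 over 16. Each of these bins holds a stretch of 10 transcripts higher in WRR that is described below. In the second bin no transcript was listed past 7689415. Sums differed from medians in the same part of the chromosome. Summed RPKM was higher in WRR in 2 bins, by 1.20-fold from 21 to 22 Mb and by 1.43-fold from 22 to 23 Mb, which hold the most abundant transcript and the one at 22040124. Summed reads per library total were higher in WRR in the second of these bins, with a ratio of 1.34 (1.22 to 1.47), while that of the first was 0.985 (0.968 to 1.003).

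Among bins with at least 10 transcripts past the filter, the median was highest from 35 to 36 Mb (-0.22, 34 transcripts), followed by 3 to 4 Mb (-0.48, 63 transcripts) and 4 to 5 Mb (-0.56, 25 transcripts). All 3 turn positive when the median of all transcripts is set to 0. In the bin from 35 to 36 Mb 21 transcripts were of series C, and relative to the table's median of its own series the bin's median was 0.78. Its transcripts of highest mean abundance were at 35609261 to 35610194 (40.3 RPKM in WRR, 29.4 in XH) and at 35552061 to 35552641 (13.9 and 35.9). Those at 35615374 to 35616027 (16.5 and 14.9) and at 35553892 to 35554199 (15.8 and 14.7) had ratios whose intervals included 1.

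The lowest median was from 14 to 15 Mb (-1.63, 25 transcripts), where 19 were at least 2-fold higher in XH and none in WRR. The neighbouring bin from 13 to 14 Mb followed (-1.59, 15 transcripts, 12 of them 2-fold higher in XH). The bin from 33 to 34 Mb had -1.56 over 12 transcripts, 11 of series C. Relative to their series the medians were -0.44 from 14 to 15 Mb, -1.15 from 13 to 14 Mb and 0.082 from 33 to 34 Mb. In the lowest bin 3 short transcripts of series B followed each other with gaps of 1335 and 1434 bases. That at 14633271 to 14633506 measured 16.6 RPKM in WRR and 40.6 in XH, that at 14634842 to 14635189 measured 7.61 and 18.6, and that at 14636624 to 14636874 measured 9.28 and 31.5. The ratios of XH over WRR were 2.45 (1.63 to 3.74), 2.45 (1.49 to 4.13) and 3.39 (2.05 to 5.8), so that all 3 leaned to XH by amounts that counting error does not separate from each other.

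Dense runs gave local profiles within single stretches of DNA. With gaps of at most 5 kb and at least 15 members, 7 runs held 218 transcripts, 22.4% of the chromosome's. All 7 run medians were below 0, from -1.48 to -0.40, of which 4 turn positive when the median of all transcripts is set to 0. Summed reads per total were higher in XH in each, by 1.13-fold to 2.50-fold. The 2 largest runs had 55 members each and differed in make-up.

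The run from 3352695 to 3516391 was nearly continuous, with 91.3% of its 164 kb covered by transcripts of a median length of 1817 bases. It held 41 transcripts of series A, and its median RPKM was 4.58 in WRR and 6.35 in XH. Summed reads were 1.24-fold higher in XH (1.21 to 1.28). Its median log2 ratio was -0.47, which turns positive when the median of all transcripts is set to 0. Relative to the table's medians of their series, its 55 transcripts had a median of 0.16. It included the longest transcript of the chromosome, 23581 bases at chr7:3482955-3506535, which measured 8.76 RPKM in WRR (1950 reads) and 10.05 in XH (1828 reads), a small difference of 1.15-fold (1.08 to 1.22) whose direction also turns with that shift. The next transcript, 637 bases at 3506689 to 3507325, measured 3.82 RPKM in WRR and 8.14 in XH. The one after it, 8210 bases at 3507249 to 3515458, leaned the other way, with 10.05 RPKM in WRR and 7.29 in XH.

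The second longest transcript of the chromosome, 18074 bases at chr7:21140071-21158144, measured 7.83 RPKM in WRR and 19.4 in XH, 2.48-fold higher in XH (2.32 to 2.65). It lay 133 bases after and 77 bases before its neighbours. A 13249-base transcript before it in position, starting at 21126217, measured 6.85 and 18.1 RPKM, and the 6389-base one starting at 21165079 measured 5.39 and 12.2. All 3 of these long transcripts were more than 2-fold higher in XH, beside 42.1% of the table's transcripts of 2000 bases and over. They were not all next to each other and were chosen after values were seen. With the median of all transcripts set to 0, the log2 ratio of the 18074-base transcript was -0.38.

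The run from 19989519 to 20064007 was of another kind, with short transcripts of a median of 482 bases that covered 43.4% of its 74.5 kb, 50 of them of series C. It opened the tightest cluster of the chromosome, in which 60 transcripts started within 100 kb, from 19989519 to 20087215. In WRR the 60 ranged from 0.868 to 11.4 RPKM with a median of 4.40, and in XH from 1.96 to 22.5 with a median of 10.9. The spread over the 60 was wider in WRR, where the coefficient of variation was 54.6%, than in XH, where it was 28.0%. Within series C it was 46.5% and 25.1%, and within series A 41.5% and 27.4%. The cluster had fewer reads in WRR (1659) than in XH (3181), and the part of counting error in these spreads was not tested.

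In this cluster 57 of the 60 transcripts were lower in WRR, 43 of them at least 2-fold, and 1 was at least 2-fold higher in WRR. Most of the cluster was of series C, of which 95.6% over the table were lower in WRR and 76.1% at least 2-fold. The median log2 ratio was -1.45, which stays negative when the median of all transcripts is set to 0. Summed reads were 1659 in WRR and 3181 in XH, 2.35-fold higher in XH per library total (2.21 to 2.49). By series, the 50 of series C were all lower in WRR, 41 of them at least 2-fold, with a median of -1.51 beside -1.64 for the whole series, and the 9 of series A had a median of -0.57, which turns with that shift. Relative to the table's medians of their series, the 60 had a median of 0.11.

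The lowest WRR value, the highest XH value and the lowest log2 ratio of the cluster lay close to each other. The highest WRR value lay apart from them, at 19999074 to 19999826. The lowest WRR value belonged to a transcript of 244 bases at 20051863 to 20052106, and the highest XH value to one of 352 bases at 20052266 to 20052617. The lowest log2 ratio, -3.87, was that of the 311 bases at 20046594 to 20046904. A gap of 17.7 kb set off the last 5 transcripts, where the 1 member at least 2-fold higher in WRR was found, at 20085208 to 20085604. That member had 27 reads in WRR and 6 in XH, and it had the lowest XH value and the highest log2 ratio of the cluster. Median coverage over the cluster was 86.8% in WRR and 98.5% in XH.

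**Figure D3:**
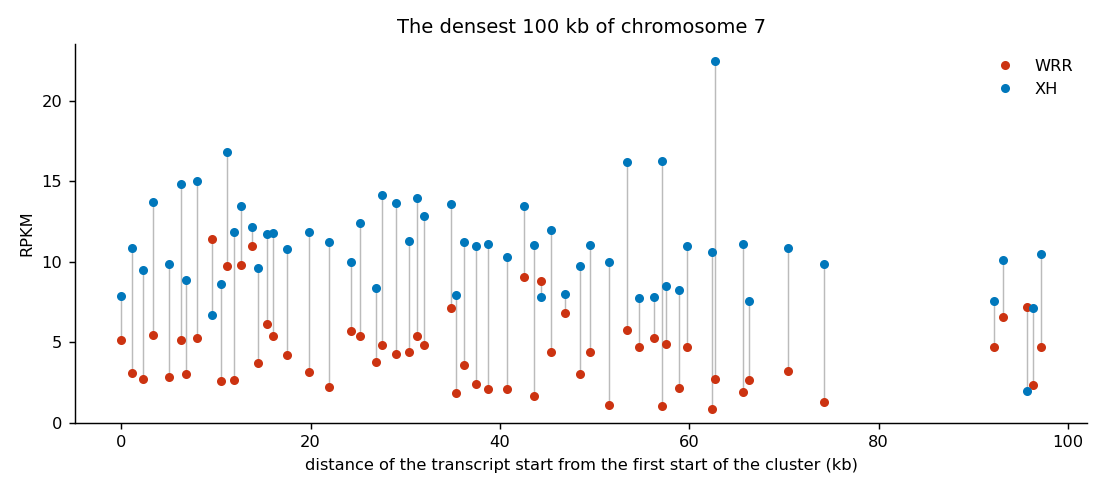
RPKM of the 60 transcripts of the densest 100 kb of chromosome 7 in the WRR and XH libraries (y axis), against the distance of each transcript's start from the first start of the cluster in kb (x axis), with a grey line joining the values of a transcript. The XH value is the upper one for 57 of 60, and the quartiles of the XH values are 8.82 and 12.2 RPKM.

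Another run of 40 transcripts followed at 20331348 to 20415674, 35 of them of series C. Its median RPKM was 3.92 in WRR and 5.77 in XH and its median log2 ratio -0.53, which turns positive when the median of all transcripts is set to 0. For the transcripts of series C alone, summed reads were 2.85-fold higher in XH in the run from 19989519 (2.66 to 3.06) and 1.43-fold in this one (1.33 to 1.54). The remaining 4 runs held 16 to 18 transcripts, from 29727377 on.

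Members higher in WRR were a minority. A log2 ratio above 0 was found for 190 members, 19.5%, where 24.4% of all transcripts had one. In order of position they formed 116 stretches, 84 of a single transcript and 6 of 5 or more. Stretches of at least 2 held 106 of the 190. By contrast, 40 members in a row were lower in WRR from 13606812 to 15327770, and 35 from 31153314 to 33226540, with medians of -1.62 and -1.39. The members of both rows were picked by the sign of their ratio. Of those 35, 30 were of series C, whose median over the table was -1.64. They lay on both sides of the empty stretch from 31227674 to 32614340. Relative to its series, the bin from 32 to 33 Mb within this row had a median of 0.79.

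Of the 6 longer stretches, that from 11187982 to 11228986 had the largest ratio of summed reads. Its 9 transcripts had 248 reads in WRR and 80 in XH, which per library total is 2.53-fold higher in WRR (1.96 to 3.30). A stretch holds only members higher in WRR, so its sum was bound to be higher there and the interval is no test of direction. At least 2-fold higher in WRR were 7 of the 9, all of series B. The values in WRR were even, between 2.55 and 3.88 RPKM, and those in XH ran from 0 to 2.92. The transcript at 11195271 to 11196017 had 18 reads in WRR and none in XH. Against a floor of 3 reads it was 4.90-fold higher in WRR, while the exact interval of the counts began lower, at 3.59. That at 11187982 to 11188808 had 23 reads in WRR and 2 in XH, with a ratio of 9.40 (2.32 to 82.2).

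Just before this stretch in position, 3 transcripts of series C went the opposite way. The transcript at 11164034 to 11165030 measured 0.212 RPKM in WRR (2 reads) and 7.28 in XH (56 reads), 34.3-fold higher in XH (9.06 to 290). The next, at 11165105 to 11166109, measured 0.105 (1 read) and 4.26 (33 reads), 40.4-fold higher in XH (6.76 to 1643). The last of them, at 11185350 to 11185802, had 1.17 and 5.44 RPKM. Within 65.0 kb, transcripts of few reads in one library and many in the other thus stood side by side in both directions. Those higher in XH were of series C and those higher in WRR of series A and B.

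**Figure D4:**
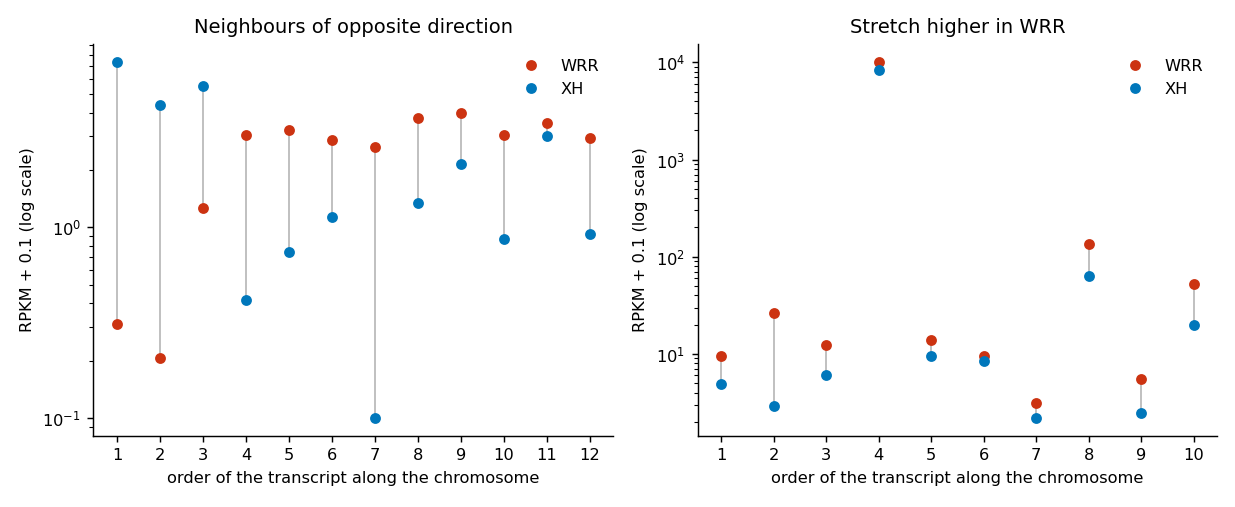
RPKM + 0.1 in the WRR and XH libraries on a log scale, for transcripts in order along the chromosome. Left, the 12 transcripts from 11164034 to 11228986, of which the first 3 are higher in XH and the other 9 in WRR. Right, the 10 transcripts from 21553248 to 22066754, all higher in WRR, with the most abundant transcript of the chromosome at place 4.

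A stretch of 10 transcripts higher in WRR spanned 514 kb from 21553248 to 22066754 and included all 3 series. It too was picked by the sign of its members, and no transcript was listed between 21707750 and 22031143 within it. The stretch began with the transcripts at 21553248 (9.47 RPKM in WRR, 4.76 in XH) and at 21565935 (26.6 and 2.81). The second of these, 323 bases long, had a ratio of 9.45 (4.39 to 24.3) from 81 and 7 reads. The most abundant transcript of the chromosome lay within the stretch, 114.8 kb from its start. Its far end held the transcript at 22040124 and a gapped one at 22065945 to 22066754 (51.7 and 19.9 RPKM), which is of series C. Past 2-fold were 5 of the 10.

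Another 10 in a row were higher in WRR from 7672454 to 7689415, at the very edge of the longest empty stretch. They were packed in 17.0 kb, with 389 reads in WRR and 209 in XH, for a ratio of 1.52 (1.28 to 1.81). This stretch too was picked by the sign of its members, so the direction of its sum was fixed by the choice. Past 2-fold were 2 of these 10. The first listed transcript beyond the empty stretch, at 9173758 to 9174340, was the reverse, with 1 read in WRR and 24 in XH.

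The highest ratio of the chromosome among members read in both libraries with at least 20 reads in all was that of a 205-base transcript at chr7:35067726-35067930. It had 38.7 RPKM in WRR from 75 reads and 0.632 RPKM in XH from 1 read, a ratio of 61.3 whose interval ran from 10.7 to 2452. It was also the shortest member. Next came transcripts at 30925445 (23 reads in WRR, 1 in XH, ratio 18.8, 3.05 to 774) and at 23936122 (21 and 1 reads, ratio 17.2, 2.76 to 710). All 5 highest, with those at 21565935 and 11187982, were of series B.

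At the other end, besides the pair at 11164034 and 11165105, stood a 238-base transcript at 30702529 to 30702766. It measured 0.890 RPKM in WRR (2 reads) and 21.8 in XH (40 reads), 24.5-fold higher in XH (6.35 to 209). Transcripts at 24817242 (1 and 33 reads) and at 9173758 completed the 5 lowest, all of series C. These 5 and the 5 highest were picked by their ratio, so their intervals are no test of direction. Over the table, 95.6% of series C were lower in WRR. With so few reads in 1 library, the size of these folds was not fixed either.

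A dash in the table, read as 0 reads, stood in WRR for 19 members (1.95%, against 2.47% of all transcripts) and in XH for 3 (0.308%, against 1.35%). None had a dash in both. The 19 were all of series C and lay in 13 bins, with 0.489 to 9.33 RPKM in XH (median 3.73, from 1 to 32 reads). The most reads were on the transcript at 33126580 to 33127419, with 32 in XH. Against a floor of 3 reads it was 13.1-fold higher in XH, while the exact interval of the counts began lower, at 10.02. Those at 20676556 and at 10675398 had 28 reads each, 11.4-fold higher in XH against that floor, with a lower exact limit of 8.69. Of the 3 with a dash in XH, all of series B, only the one at 11195271 had more than 2 reads in WRR.

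The 3 widest intervals relative to length were all on transcripts under 10 RPKM. The 556 bases placed over 144 kb, from 873912 to 1018332, had 3.62 RPKM in WRR and 2.10 in XH with an interval of the ratio from 0.744 to 4.33. The 654 bases over 75.3 kb from 30793245 to 30868534 measured 6.96 RPKM in WRR and 1.19 in XH, with a ratio of 5.85 (2.48 to 16.8). The 502 bases over 36.4 kb from 2930056 to 2966502 measured 1.27 and 5.94, 4.69-fold higher in XH (1.86 to 14.1).

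Neighbours resembled each other more at short distance. Among consecutive transcripts of the same series less than 10 kb apart, Pearson's r between their log2 ratios was 0.35 in series A (145 pairs), 0.64 in series B (105 pairs) and 0.31 in series C (268 pairs). Over 100 kb apart it was -0.03, 0.11 and 0.14 (67, 77 and 89 pairs). The median absolute difference within pairs moved little in series A, from 0.53 under 10 kb to 0.60 over 100 kb. It went from 0.60 to 1.40 in series B and from 0.64 to 1.00 in series C. The pairs share libraries, local position and depth, so these values are descriptions.

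The deposited coverage, the percent of a transcript's length under reads, was higher in XH. The median was 84.0% in WRR and 92.2% in XH, against 79.9% and 89.5% over all transcripts of the table. Coverage of 90% or more was reached by 337 and 552 of the 973 members, beside 7117 and 10660 of all 21993 transcripts. Below 50% were 157 and 55, beside 5041 and 2584 of all. Coverage was higher in XH for 646 members and in WRR for 311. By bin, the median was higher in XH in 34 of 36 bins. The same counts were not taken over all transcripts, whose median coverage was also higher in XH.

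Coverage rose with reads in both libraries. Members with 1 to below 5 reads had a median coverage of 32.3% in WRR and 29.3% in XH, and those with 20 to below 50 reads 88.7% and 90.9%. Among the 116 members with at least 100 reads in both libraries the medians were 93.8% and 97.0%, with XH higher for 73 and WRR for 36. The median log2 ratio of these 116 was -0.59, so their abundance was not level between the libraries. The part of reads in this coverage difference was not tested. At the extremes, the transcript at 4901106 to 4901818 was covered to 91.4% in WRR and 15.3% in XH, from 21 and 2 reads. The 447-base transcript at 31208246 to 31208692 was covered to 98.0% in XH and had a dash in WRR.

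**Figure D5:**
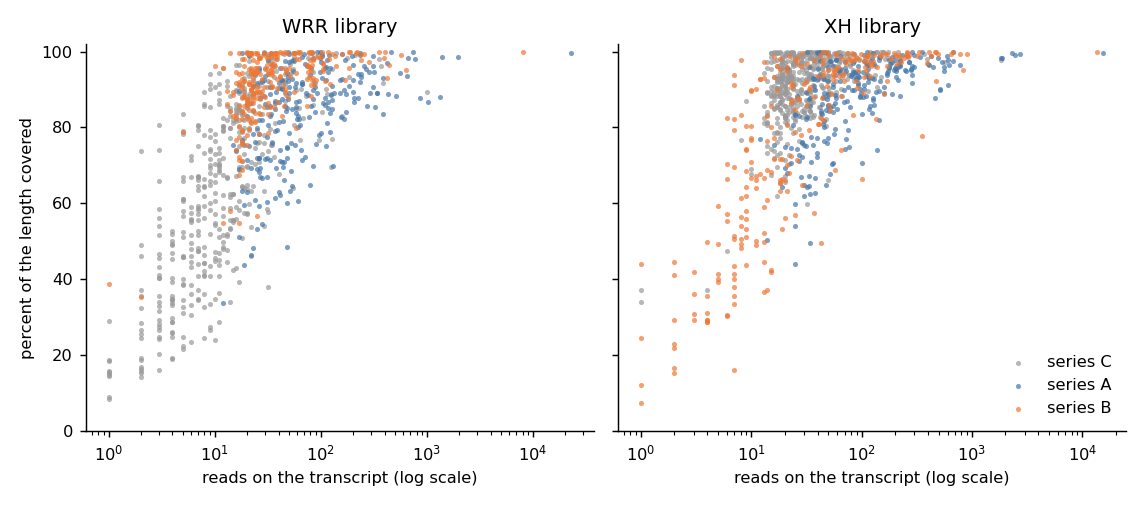
Percent of the length under reads for each transcript (y axis) against the number of reads on it on a log scale (x axis), in the WRR library (left) and the XH library (right), for members with at least 1 read, coloured by series of serial numbers. In both panels coverage climbs with reads. The points of few reads belong mostly to series C in WRR and to series B in XH.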

How the data were processed

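Breast muscle RNA of 2 chicken strains was analysed from 1 pooled library each, so samples were grouped by the strain in the labels. Per the submitters' processing notes, TopHat2 2.0.8, Cufflinks 2.0.2 and the build galGal4 were used, with no role named. The authors deposited, without normalization, counts of reads that the column names call unique. The authors' deposited RPKM values are scaled to the total given in the file headers. No source used here says what the total counts. The RPKM formula gave 954 of 954 listed WRR values and 970 of 970 XH values of the chromosome within 0.001%. The deposited coverage is a percent of transcript length, per the file headers. No listed count was below 1, so a dash was read as 0 reads.

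From these values, log2 ratios with a pseudocount of 0.1 RPKM, counts at 2-fold, medians in bins of 1 Mb and exact 95% intervals of read counts were computed with Python 3.11.15, pandas 2.3.3 and scipy 1.17.1. Ratios were used where at least one library reached 0.5 RPKM. Folds against a dash used a floor of 3 reads per library. No test was made, since there was 1 library per strain. Ratios and intervals were tested on simulated data, with known changes placed only on transcripts of many expected reads. That check therefore did not cover folds resting on few reads or the floor set against a dash. Background shares were taken over all transcripts of the table. Named transcripts were the 6 of highest mean RPKM, the 5 highest and 5 lowest ratios with at least 20 reads, the 3 of most reads beside a dash in each library, the 2 longest, the 3 of widest interval, the 3 of largest coverage difference each way and the 5 most abundant in the highest and lowest bins. The windows, runs and stretches, and transcripts named within them, were chosen after values were seen. The members and all lists were chosen with earlier results of these data known. Alternatives were the pseudocount, the filter, the scaling, the series, gapped transcripts, bin borders and leaving out the most abundant transcript or the tightest cluster.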

Additional observations from a re-analysis of the deposited data

How the results depend on the processing

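No paired analysis was possible because there was 1 pooled library per strain, and no library could be left out. The counts of members past 2-fold, 70 for WRR and 489 for XH, became 172 and 184 with the median of all transcripts set to 0. They were 3 and 84 in series A alone, 65 and 61 in series B alone, and 2 and 344 in series C alone. With the other pseudocounts, filters, RPKM rescaled to the listed reads, contiguous transcripts alone or, added after seeing the data, without the tightest cluster, each count stayed within 1.5 times its value. The median log2 ratio of -1.0 became -0.82 with a pseudocount of 1 RPKM, -0.088 centred on all transcripts (a shift of 0.92) and -0.72 rescaled to the listed reads (a shift of 0.32). It was -0.63 in series A and -1.58 in series C. In series B it was near 0, at 0.023 with quartiles of -0.92 and 0.98. The ratio of summed RPKM, 0.874, became 1.65 centred, 1.09 rescaled, 1.09 in series A, 0.637 in series B, 0.394 in series C and 0.557 without the most abundant transcript. The number of bins with a median above 0 went from 0 to 2 with bins shifted by 0.5 Mb, 16 centred, 1 rescaled and 14 in series B. The cause of the differences between series was not tested. Of 39 named transcripts, 2 changed sign when centred and 2 when rescaled, those at 26041179 and 3482955, and none with a pseudocount of 1 RPKM. The log2 ratio left the exact interval of the counts for 17 of the 39 when centred. It did so for 9 when rescaled and for 10 with that pseudocount. Depth limits single folds, since many members had under 20 reads in 1 library.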
